A study of Mus musculus with 18 samples.

Results

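RNA 5-methylcytosine (m5C) was followed at single positions in the transcripts of 6 genes for RNA-binding proteins and translation factors of the mouse testis: Pabpc1, Ybx3, D1Pas1, Piwil1, Eif4b and Rbm28. They were chosen by gene name. Each has 1 of the 251 sites in the mRNA table, and Piwil1 also has 1 of the 192 sites in the small RNA table, so 7 sites are described. The names were put forward after levels and genotype differences in these same tables had been seen, so levels and differences in level are given as a description.

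Testes came from adult wild-type (WT) mice and from adult Nsun7 knockout mice, with 3 libraries per genotype for mRNA and 3 per genotype for small RNA. The strain, the exact age, the knockout allele and whether each library came from a different animal are not given in the sources used here. Any p-value therefore measures only how far these libraries differ, which can be technical variation. Bisulfite treatment turns unmethylated cytosine into uracil, and the level at a site is the share of covering reads that still show C. Unconverted cytosine that carries no methyl group counts in the same way. NSUN7 belongs to a family of RNA m5C methyltransferases, and the study's title calls it catalytically inactive. Coverage summed over the listed mRNA sites was 42086 to 55140 reads per library. The median site had 129.5 reads. In both genotypes the replicate 3 mRNA library stood apart from replicates 1 and 2 in how its coverage was spread over the sites, so values without both are given as well. Few marker genes kept for cell types have a listed mRNA site. They are 1 of 5 Leydig cell markers (Insl3), 1 of 6 Sertoli cell markers (Amhr2), 0 of 12 germ cell markers and 0 of 3 macrophage markers. The tables list methylated sites and not expression, so a missing marker does not show that the cell type was missing.

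Male germ cells make many mRNAs long before the proteins are needed, because transcription stops as the sperm nucleus condenses. RNA-binding proteins keep such messages silent and stable until translation resumes. PABPC1 binds the poly(A) tail and links it to the initiation machinery. YBX3 is a Y-box protein that packages stored mRNAs, and its relative YBX1 is known as a reader of m5C. D1PAS1 is a testis DEAD-box RNA helicase related to DDX3X. PIWIL1 (MIWI) binds piRNAs in spermatocytes and round spermatids. EIF4B stimulates the helicase that unwinds mRNA leaders at the start of translation, and RBM28 is a nucleolar protein needed for assembly of the large ribosomal subunit. All 6 are protein-coding genes in RefSeq.

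The 6 mRNA sites spanned a wide range of levels, from 6.88% at Piwil1 to 62.3% at D1Pas1 in WT. The order from the top was D1Pas1, Ybx3 and Pabpc1, followed by Eif4b, Rbm28 and Piwil1 in WT. The upper 3 stood apart: D1Pas1 exceeded Ybx3 by 21.4 to 34.3 percentage points in each of the 6 libraries, and Ybx3 exceeded Pabpc1 by 8.45 to 13.7 points. Pabpc1 in turn exceeded Eif4b by 6.19 to 17.2 points. The lower 3 did not separate. Eif4b exceeded Rbm28 in 1 of 6 libraries, Rbm28 exceeded Piwil1 in 5 of 6, and the ranges of all 3 overlapped. The order of these 3 also differed between genotypes, with Eif4b the highest in WT and the lowest in the knockout.

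**Figure D1:**
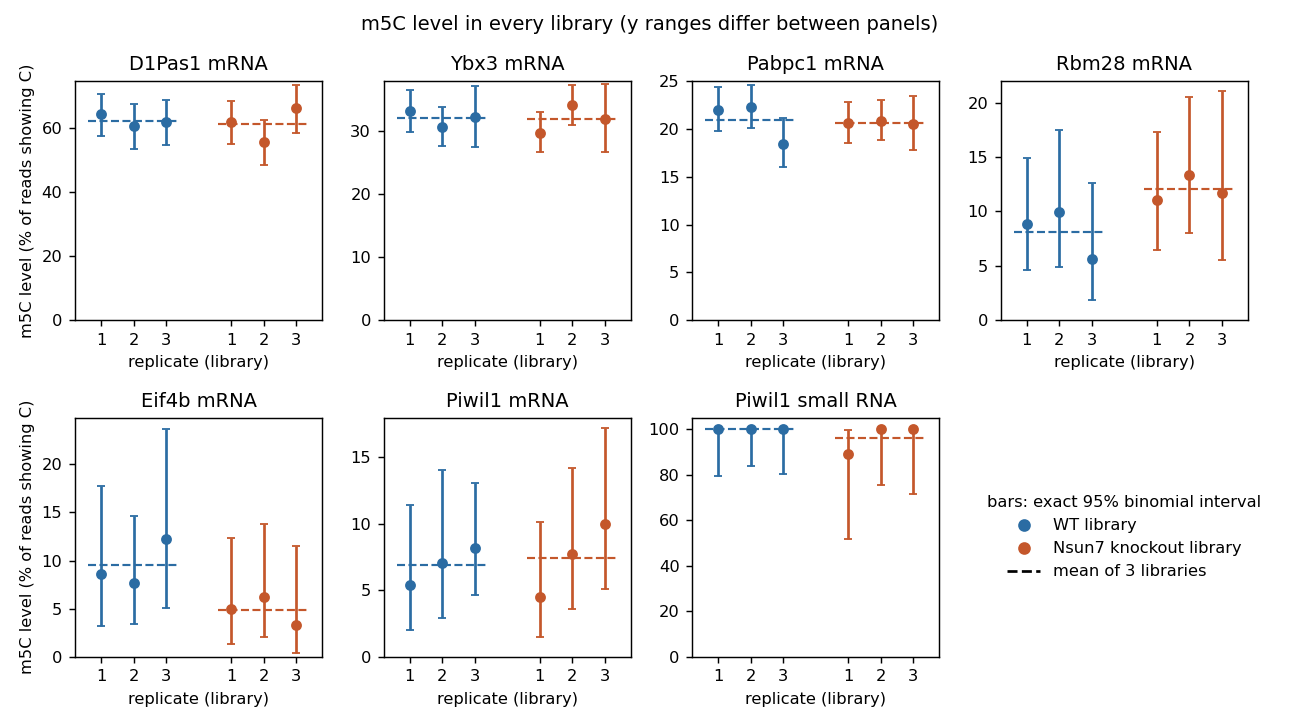
The share of reads showing C (%) is plotted for each WT (blue) and Nsun7 knockout (orange) library, with exact 95% binomial intervals as bars and the mean of 3 libraries as a dashed line. D1Pas1, Ybx3 and Pabpc1 have WT means of 62.3%, 32.0% and 20.9%, and the D1Pas1 libraries range over 10.7 points, the most of the 6 mRNA sites. Intervals at Rbm28, Eif4b and Piwil1 mRNA are wide compared with the levels themselves, and the vertical ranges differ between panels.

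The D1Pas1 site (ENSMUSG00000039224; GRCm39 chromosome 1, position 186701181, plus sign) was among the most methylated in mRNA. WT libraries stood at 64.2%, 60.7% and 61.9%, and knockout libraries at 61.9%, 55.6% and 66.3%, for replicates 1 to 3. The WT values lay inside the range of the knockout values. By mean level the site ranked 4 of 251 in WT and 2 of 251 in the knockout, and within single libraries it ranked between 3 and 9. Coverage was 166 to 218 reads, and the single-library intervals ran from 48.5% at their lowest to 73.4% at their highest. Knockout replicates 2 and 3 lay farthest apart, 10.7 points, and the knockout SD of 5.35 points was 1.52 times the SD that counting reads alone would give. The mean difference, knockout minus WT, was -1.04 points, with single pairs of libraries between -8.61 and 5.57. It turned to 1.78 without knockout replicate 2 and was -3.55 without knockout replicate 3. D1Pas1 resembles Ddx3x in sequence, the rules for placing reads that fit both are not given in the sources used here, and no Ddx3x or Ddx3y site is listed in the mRNA table.

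The Ybx3 site (ENSMUSG00000030189; chromosome 6, position 131365133, minus sign) had a lower and steady level, with means of 32.0% ± 1.22 for WT and 32.0% ± 2.20 for the knockout (SD, n = 3). WT libraries stood at 33.2%, 30.7% and 32.2%, and knockout libraries at 29.8%, 34.2% and 31.9%. The genotypes overlapped, with the lowest and the highest library both in the knockout. Coverage was 310 to 887 reads, and 1305 of 4081 reads over all 6 libraries showed C, 32.0% with an exact 95% interval of 30.5% to 33.4%. Same-numbered libraries differed by -3.40, 3.42 and -0.263 points, so no direction was shared.

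The Pabpc1 site (ENSMUSG00000022283; chromosome 15, position 36608637, minus sign) was the most deeply covered of the 6, with 832 to 1519 reads, rank 5 of 251 by median coverage. WT libraries stood at 22.005%, 22.3% and 18.5%, and knockout libraries at 20.6%, 20.9% and 20.6%. WT replicate 3 was the lowest of the 6 libraries, and the other 5 lay within 20.6% to 22.3%. WT replicates 1 and 2 lay above all 3 knockout libraries, so the genotypes overlapped only through WT replicate 3. The spread of the WT libraries (SD 2.13 points) was 1.77 times that of counting alone, while the knockout libraries (SD 0.167 points) were closer together than counting error, at 0.141 times. The difference of means was -0.246 points. Leaving out WT replicate 3 gave -1.47, and leaving out WT replicate 2 turned it to 0.439. At 20.9% of 7324 reads over all libraries, the exact 95% interval was 20.02% to 21.9%.

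Pabpc2, an intronless testis-expressed copy of Pabpc1, also has a listed site, and its level was far lower. WT libraries stood at 6.84%, 4.98% and 2.86%, and knockout libraries at 5.39%, 5.50% and 4.07%. They had 245 to 424 reads each. Reads from the 2 genes could be confused where their sequences are the same, and the placing of such reads was not analysed here. Every Pabpc1 library was higher than every Pabpc2 library.

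The upper 3 of these sites were also the better covered ones, at ranks 5 (Pabpc1), 8 (Ybx3) and 71 (D1Pas1) of 251 by median coverage. Of 73 sites with a median of at least 200 reads, 12 had a WT level of at least 20%, among them Pabpc1, Ybx3 and D1Pas1. Both limits were set after the values had been seen, and D1Pas1 (203 reads, with 197 and 166 in the replicate 3 libraries) and Pabpc1 (20.9%) lie close to them. Among all 251 sites, at any coverage, Pabpc1 ranked 72 by WT level, so at least 72 sites reached 20%. Over all 251 sites, the WT level and median coverage were inversely ranked (Spearman's rho of -0.57 across sites, which share libraries and the authors' selection of sites). How the sites were selected was not stated in the sources used here, and the lowest C count at any listed site was 4 in a WT library and 1 in a knockout library.

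**Figure D2:**
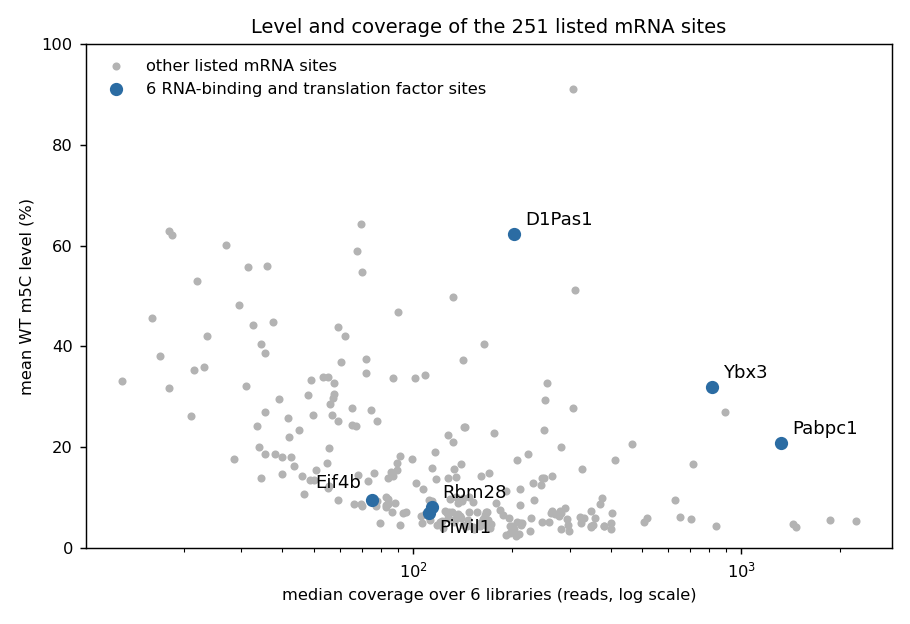
Each point is 1 of the 251 listed mRNA sites, with median coverage over the 6 libraries on a log axis and mean WT level (%) on the vertical axis. Pabpc1, Ybx3 and D1Pas1 lie to the upper right of most sites at 1322.5, 813.5 and 203 reads, and Eif4b, Rbm28 and Piwil1 lie in the crowded lower band at 75 to 114 reads.

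Eif4b and Rbm28 were the 2 genes of the 6 whose WT and knockout libraries did not overlap, in opposite directions. The Eif4b site (ENSMUSG00000058655; chromosome 15, position 102003436, plus sign) gave 8.57%, 7.69% and 12.3% for the WT libraries and 5.00%, 6.17% and 3.33% for the knockout libraries. All 3 knockout libraries lay below all 3 WT libraries, the nearest by 1.52 points. These percentages rest on few reads: 6 of 70, 8 of 104 and 7 of 57 reads showed C in WT, and 4 of 80, 5 of 81 and 2 of 60 in the knockout. The single-library intervals overlapped throughout, with bounds between 3.21% and 23.7% for WT and between 0.406% and 13.8% for the knockout. The difference of means was -4.68 points, from 9.51% ± 2.44 to 4.84% ± 1.43 (SD, n = 3), and the knockout level over the WT level, 0.508, was the lowest ratio of the 251 sites, while by size the difference ranked 33 of 251. It was -2.55 points, smaller by over 1.5 times, without both replicate 3 libraries, the highest in WT and the lowest in the knockout, which also stood apart from the others in coverage as described further on. Its low C counts fell under the lowest WT count of the table in 1 knockout library, and the part of the site selection in this difference was not tested.

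The Rbm28 site (ENSMUSG00000029701; chromosome 6, position 29164587, minus sign) gave 8.82%, 9.90% and 5.62% for the WT libraries and 11.0%, 13.4% and 11.7% for the knockout libraries. All 3 knockout libraries lay above all 3 WT libraries, the nearest by 1.13 points. C was read 12, 10 and 5 times in WT and 16, 17 and 9 times in the knockout, out of 77 to 145 reads per library. The difference of means was 3.92 points, 8.11% ± 2.23 against 12.0% ± 1.21 (SD, n = 3). It ranged from 2.67 points without WT replicate 3 to 4.82 without WT replicate 2, and was 2.85 without both replicate 3 libraries. At both genes the spread within a genotype was smaller than counting error predicts, at 0.388 to 0.829 times.

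Libraries separated by genotype at other sites of the table too. Of the 251 mRNA sites, 6.37% had all knockout libraries below all WT libraries and 5.18% had all above, 11.6% in either direction. Among the 6 genes this was 1 site each way, and both genes were among those put forward with their differences known, so nothing is read from that count.

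**Figure D3:**
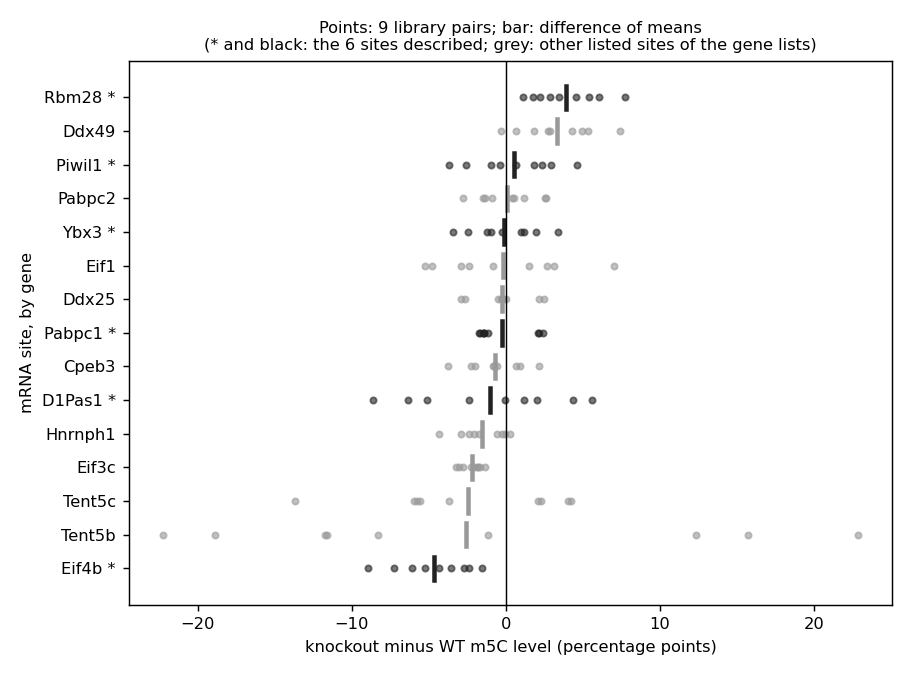
Points give the difference in m5C level (percentage points) for each of the 9 pairs of 1 knockout and 1 WT library, and bars give the difference of means, for the 6 sites (black, starred) and the other listed sites of RNA-binding and translation genes (grey). The 9 points lie wholly on one side of 0 at Eif4b, Rbm28 and Eif3c, and straddle 0 at the other 12 sites.

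Piwil1 had a low level at its mRNA site, the lowest of the 6 in WT and above Eif4b in the knockout, and a high level at its small RNA site, at another position. The mRNA site (ENSMUSG00000029423; chromosome 5, position 128831921, plus sign) gave 5.41%, 7.07% and 8.15% for the WT libraries and 4.46%, 7.76% and 10.0% for the knockout libraries. The genotypes overlapped, with the lowest and the highest library both in the knockout. The difference of means was 0.532 points, with same-numbered libraries at -0.941, 0.688 and 1.85. It turned to -0.765 without knockout replicate 3. Over all libraries 53 of 732 reads showed C.

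The Piwil1 site in small RNA (chromosome 5, position 128816311) lay 15610 nucleotides away in the genome. All 54 WT reads there showed C, 16, 21 and 17 in the 3 libraries. In the knockout 8 of 9, 13 of 13 and 11 of 11 reads did, so 1 of 87 reads over both genotypes was converted. That 1 converted read put knockout replicate 1 at 88.9%, with an exact 95% interval of 51.8% to 99.7%. Pooled WT reads gave an interval of 93.4% to 100%, and pooled knockout reads 84.2% to 99.9%. These reads do not separate the genotypes: the difference of -3.70 points was 0 without knockout replicate 1, and the quasi-binomial model described below could not be fitted at this site, since every library it uses stood at 100%.

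Coverage in small RNA at Piwil1 was thin, with a median of 14.5 reads. Only 12 of 192 small RNA sites had that median or a lower one. All reads in all WT libraries showed C at 6 small RNA sites in total: Piwil1, Tle4, Frmd5, Arl15, Gm16741 and tRX-Ser-NNN-32-1. Their coverage was 6 to 30 reads per library, and at 4 of them the knockout libraries were at 100% as well. The other exception beside Piwil1 was tRX-Ser-NNN-32-1, a tRNA-like gene, with 1 knockout library at 95.5%. The sign is plus at all 192 sites of the small RNA table, so it does not place the site on a strand of Piwil1. Position and gene name are all the tables give, and whether either Piwil1 site is exonic, intronic or in a UTR was not analysed here.

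When a quasi-binomial model of the C counts was fitted at each of the 251 mRNA sites and its p-values were adjusted over all of them (Benjamini-Hochberg), 0 sites (0%) passed. Without adjustment, 20 sites (7.97%) had a p under 0.05. limma on the levels passed 0 sites, and 14 without adjustment. In the quasi-binomial model, the 6 sites had adjusted p from 0.540 (Eif4b) and 0.575 (Rbm28) to 0.984 (Ybx3). In small RNA, 0 of 184 sites (0%) passed the same model, and 7 (3.8%) had a p under 0.05 without adjustment. A p above the threshold does not show equal levels, so the limma 95% intervals of the difference are given, as a description. limma borrows spread from all sites and gives no weight to coverage, so their widths do not follow each site's read number. The intervals ran from -3.73 to 3.24 points at Pabpc1, from -3.91 to 3.75 at Ybx3 and from -8.16 to 6.08 at D1Pas1. The WT levels there were 20.9%, 32.0% and 62.3%. At Piwil1 mRNA the interval was -3.87 to 4.93 points beside 6.88%. At Eif4b and Rbm28, put forward with their differences known, the limma intervals were -8.80 to -0.558 and 0.0715 to 7.77 points. Neither includes 0 before adjustment over the sites, and limma's adjusted p was 0.768 at both. In the quasi-binomial model, p before adjustment was 0.0511 at Eif4b and 0.0629 at Rbm28. The fitted dispersions there were 0.39 and 0.399, so the libraries lay closer together than counting error predicts, which lowers those p. Fisher's exact test on pooled reads gave an unadjusted p above 0.05 at both. Without both replicate 3 libraries the differences of means were -1.41 points at Pabpc1, 0.00761 at Ybx3, -3.72 at D1Pas1 and -0.127 at Piwil1 mRNA, so the sign turned at Ybx3 and Piwil1.

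Coverage was compared between genotypes as well, since it follows how many mRNA reads reach each site. Its part in the differences in level was not tested. In bulk testis RNA, fewer cells of a type and less RNA per cell cannot be told apart in such values. Per 10000 reads summed over the listed sites, Pabpc1 had 258, 302 and 183 in WT and 253, 276 and 198 in the knockout. Ybx3 had 159, 193 and 75.3 in WT and 152, 161 and 73.7 in the knockout. In both genotypes replicate 3 was the low library, and the genotypes otherwise overlapped.

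An edgeR quasi-likelihood test of coverage called 0 of 251 sites (0%; 5 sites, 1.99%, at an unadjusted p under 0.05), and DESeq2 called 0 with 0 at an unadjusted p under 0.05. The 6 genes had log2 differences, knockout over WT, from -0.34 at Piwil1 to -0.04 at Rbm28, all with an edgeR adjusted p of 0.988. Over all 251 sites, 125 were higher and 126 lower in the knockout, with a median log2 difference of -0.001. Piwil1 had 22.5, 21.8 and 36.3 reads per 10000 in WT and 20.3, 21.1 and 26.1 in the knockout, so WT replicate 3 was the highest library. Without it the unpaired Piwil1 log2 difference turned to 0.06, with knockout replicate 3 kept. Within same-numbered pairs, Piwil1 and Ybx3 were lower in the knockout in all 3. How many of the 251 sites did the same was not counted, so nothing is read from this. With the replicate number as a block, edgeR's quasi-likelihood test gave Piwil1 a log2 difference of -0.30 and an adjusted p of 0.409. Before adjustment the edgeR values were 0.0426 with the block and 0.298 without it. With the block, 28 of the 251 sites (11.2%) had an unadjusted edgeR p under 0.05. The remaining genes of the 6 had 0.0881 (D1Pas1) to 0.776 (Rbm28) in that fit. D1Pas1, the steadiest of the 6, had 44.1, 44.3 and 38.8 in WT and 39.0, 37.3 and 39.4 in the knockout, a log2 difference of -0.19 ± 0.10 (SE). Rbm28 had 17.5 to 27.5 in WT and 18.3 to 26.3 in the knockout, and Eif4b 11.2 to 22.9 and 14.3 to 14.7. In unpaired fits, the sign of the small differences turned with 1 library left out at Pabpc1, Ybx3, Rbm28 and Eif4b. Pabpc1 and Ybx3 turned to 0.04 and 0.07 without WT replicate 2, and to 0.01 and 0.08 without knockout replicate 3. Rbm28 turned to 0.08 without WT replicate 1 and to 0.05 without knockout replicate 3, and Eif4b to 0.10 without WT replicate 2. Such fits leave the replicate numbers unequal between genotypes, and replicate 3 was low at Pabpc1, Ybx3 and Rbm28. They therefore do not show whether the direction within same-numbered libraries is stable. With the block and all libraries kept, the log2 differences were -0.07 at Pabpc1, -0.17 at Ybx3, -0.04 at Rbm28 and -0.19 at Eif4b. Without both replicate 3 libraries the 6 log2 differences ran from -0.34 at Eif4b to -0.02 at Rbm28, with edgeR adjusted p of 0.757 or more, and that of Piwil1 was -0.10. Rbm28 also turned, to 0.01, when no scaling beyond the summed coverage was used.

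**Figure D4:**
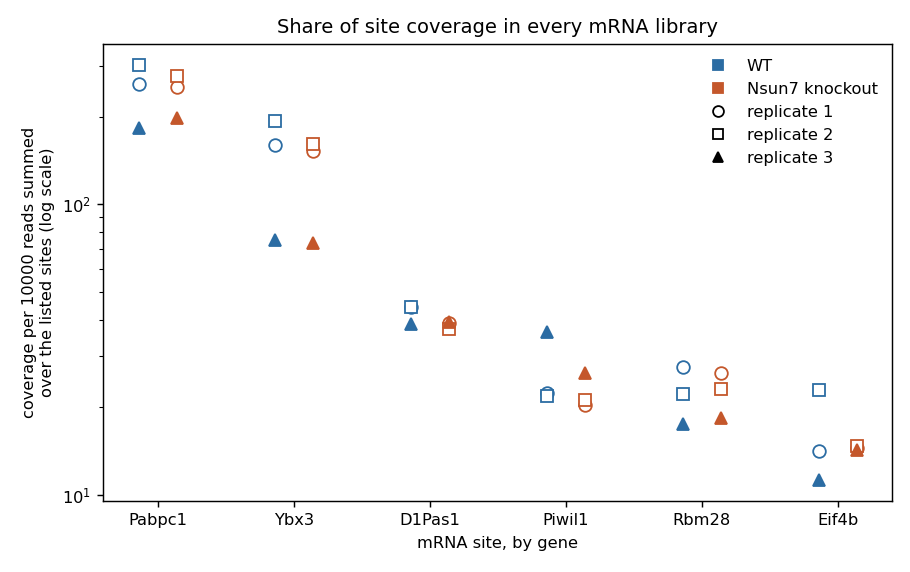
Coverage per 10000 reads summed over the listed sites is plotted on a log axis for each mRNA library, by genotype (colour) and replicate number (symbol, replicate 3 filled). Both replicate 3 libraries lie below the other 4 at Pabpc1, Ybx3 and Rbm28 and above them at Piwil1.

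At 4 of the 6 sites coverage separated the replicate 3 libraries from the other 4, in both genotypes. At Ybx3 the replicate 3 libraries averaged 74.5 reads per 10000 and the other 4 libraries 167, 2.24 times as many. The ratio was 1.43 at Pabpc1 and 1.38 at Rbm28. Piwil1 went the other way, with 31.2 in the replicate 3 libraries and 21.4 in the others. Across the table both replicate 3 libraries lay below the other 4 at 100 of 251 sites (39.8%) and above them at 29 (11.6%), and the median site was lower by 0.21 on the log2 scale. Only 9 sites, Ybx3 included, were as low in replicate 3 as Ybx3. The labels do not say what a replicate number stands for. The m5C level of Ybx3 in replicate 3, 32.2% for WT and 31.9% for the knockout, lay between those of the other 2 libraries in each genotype.

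Other genes of the same kinds had few listed sites. With the 6 genes, 15 mRNA sites fell in the lists of poly(A)-binding, Y-box, DEAD/DExH-box, piRNA pathway, translation factor, RBM and other germ cell RNA-binding genes, and 0 of them passed the quasi-binomial model. The knockout level was lower at 11 of the 15 and higher at 4, beside 150 lower and 101 higher over all 251 sites. Their median WT level was 9.51% and the median over all sites 10.1%. The median difference was -0.246 points for the lists and -0.395 for all sites. Without the 6 genes, which were chosen with their differences known, 7 of the 9 list sites were lower and 2 higher, with a median difference of -0.714 points.

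Among helicases, Ddx25 (GRTH), a testis helicase needed for spermatid development, had means of 4.45% ± 1.47 for WT and 4.21% ± 1.47 for the knockout (SD, n = 3). Ddx49 had 7.24% and 10.5%, with overlapping libraries, the highest at 12.3%. D1Pas1 was the only one of the 3 listed helicase sites above these levels. No other piRNA pathway, Y-box or RBM gene of the lists has a listed mRNA site.

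Beside Eif4b, which was put forward with its difference known, 2 translation initiation factors have a listed site. Both had a lower mean in the knockout, as had 150 of all 251 sites, and 1 of the 2 had knockout libraries wholly below the WT libraries, as had 6.37% of all sites. That one was Eif3c, a core subunit of the factor that brings the small ribosomal subunit to mRNA. The Eif3c libraries had 6.27%, 6.45% and 5.98% for WT and 4.61%, 4.20% and 3.24% for the knockout, with 301 to 405 reads each. In the quasi-binomial model its difference of -2.22 points had p = 0.00919, and p = 0.340 after adjustment over all sites (0.876 in limma). The fitted dispersion there was 0.222, so the libraries lay closer together than counting error predicts, which lowers that p. Before adjustment, p was 0.0321 in Fisher's exact test on pooled reads and 0.0775 in limma. Eif1, which guards start codon choice, stood at 10.0% ± 4.06 and 9.85% ± 2.41 (SD, n = 3), a difference of -0.195 points.

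Of the remaining RNA-binding genes, Tent5c and Tent5b, which encode poly(A) polymerases, had the highest WT means. Tent5c had 42.1% ± 5.30 for WT and 39.6% ± 4.49 for the knockout (SD, n = 3). Tent5b varied widely, from 6.78% to 41.4% within WT, at coverage of 29 to 59 reads. Cpeb3 had 10.1% and 9.36%, and Hnrnph1 4.59% and 3.04%, both overlapping between genotypes.

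For each of the 6 mRNA sites the nearest other site was sought by the root-mean-square difference in level over the 6 libraries. The nearest to Pabpc1 was Nbr1 (1.35 points), to Ybx3 Selenok (2.39 points), to Rbm28 Penk (1.35 points), to Eif4b Rrbp1 (1.61 points) and to Piwil1 Atoh8 (1.07 points). The low sites had much company, with 44 other sites within 3 points of Piwil1, 19 of Eif4b and 15 of Rbm28. Pabpc1 had 2 such sites and Ybx3 had 1. D1Pas1 had none, and its nearest site, in Cux1, was 6.14 points away at coverage of 31 to 41 reads.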

How the data were processed

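Per the labels' protocols, total testis RNA came from a TRIzol extraction, oligo-dT beads took out mRNA, columns took out small RNA, and both were treated with an ultrafast bisulfite reagent before library preparation. The submitters' processing notes name cutadapt, Trimmomatic, HISAT2, Bowtie2, SAMtools and GRCm39, without roles or versions. The deposited coverage and C count columns are whole-number counts of reads per site and library, per the file headers. The deposited m5C level is a fraction made by the authors from these counts, and matched C count over coverage within 0.005 at 1505 of 1505 mRNA and 1152 of 1152 small RNA values. No per-sample column was left unmapped (0), and the rRNA table was not used here.

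Levels were recomputed as percentages. The 95% intervals on reads (Clopper-Pearson, exact binomial) hold counting error alone, because PCR copies are not separate molecules. All tests were fitted on whole tables with a two-sided threshold of 0.05 after Benjamini-Hochberg adjustment: a quasi-binomial model with each site's own dispersion for libraries with at least 10 reads and at least 2 per genotype, limma 3.58.1 on levels, Fisher's exact test on pooled reads, and, for coverage, edgeR 4.0.16 (quasi-likelihood, TMM on summed coverage) and DESeq2 1.42.0, in R 4.3.3. In the quasi-binomial model, libraries fitted at 0% or 100% gave no degree of freedom. Scripts were tested on simulated data. The genes and lists were chosen with earlier results of these data known. Named sites are the 7 chosen sites, all listed sites of the gene lists and the nearest site by level for each of the 6 mRNA sites. Sites given with the Piwil1 small RNA site were added after values were seen.

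Replicate numbers come from the labels. Same-numbered mRNA libraries correlated in their residual m5C at 0.0862, -0.0107 and 0.0812, so m5C in mRNA was not taken as paired. Their coverage correlated at 0.517, 0.695 and 0.809, and small RNA m5C at 0.310, 0.604 and 0.492. Both passed a limit of 0.1 per pair, so a fit with a replicate block was run beside the unpaired main test. Different-numbered libraries of replicates 1 and 2 also correlated in coverage, at 0.485 and 0.507, while those with 1 replicate 3 library stood at -0.589 to -0.751. Coverage residuals were taken from the mean of each genotype's libraries, so they cancel out within a genotype at each site. Once replicates 1 and 2 go together, the negative sign with replicate 3 therefore follows by arithmetic. In small RNA m5C, WT replicate 3 and knockout replicate 1 correlated at 0.317. These values therefore do not settle that libraries pair by number.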

Additional observations from a re-analysis of the deposited data

How the results depend on the processing

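The counts of sites called stayed at 0 in mRNA m5C with a coverage minimum of 20 or none, limma, Fisher's exact test and a replicate block (0 sites), and ranged from 0 to 1 with 1 library left out. The 1 call came without knockout replicate 3, outside the 6 genes. In small RNA, Fisher's exact test on pooled reads, which takes no account of the spread between libraries, called 24 sites against 0 in the quasi-binomial model, 0 with the replicate block and 0 to 0 with 1 library left out. Piwil1 was not among them (adjusted p = 0.818, Fisher's exact test). Coverage gave 0 calls under every scaling, filter and tool listed, with the replicate block (0 sites, 28 at an unadjusted p under 0.05, against 5 without it) and with 1 library left out (0 to 0). Leaving out both replicate 3 mRNA libraries, an alternative chosen after seeing the data, called 0 sites for m5C and 0 for coverage. With 2 libraries in each genotype that fit had little to estimate the spread from. Low C counts limit Eif4b, Rbm28 and Piwil1, and 9 to 21 reads per library limit Piwil1 in small RNA.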
